A study of Mus musculus with 42 samples.

Results

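Genes that mark white and brown fat were followed on every array of lung, liver and forestomach from Muta™Mouse given benzo(k)fluoranthene (BkF). BkF is a polycyclic aromatic hydrocarbon, a product of incomplete combustion. The 10 genes were Adipoq, Plin1, Fabp4, Cfd, Lep, Retn, Car3, Ucp1, Cidea and Elovl3, taken by gene symbol from the 20018 genes named on the array, and each had a single probe. The Muta™Mouse is a transgenic strain made for mutation assays, and the 15 mice were males of about 11 weeks. BkF was given in olive oil by oral gavage daily for 28 days at 25 mg/kg-bw/day (low dose, D1), 50 mg/kg-bw/day (medium dose, D2) or 100 mg/kg-bw/day (high dose, D3), and the vehicle controls (D0) received olive oil alone, so all mice were given an oil. Tissue was collected 72 h after the last dose, and RNA came from a random piece of each tissue. The 42 arrays comprised 4 D0, 3 D1, 4 D2 and 4 D3 lungs, 4, 2, 3 and 4 livers, and 4, 3, 4 and 3 forestomachs, and the tissues came from the same mice.

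White fat cells store triglyceride in a single droplet and secrete hormones and serum proteins, whereas brown fat cells burn lipid to make heat. Adipoq encodes the hormone adiponectin, Lep leptin, Retn resistin and Cfd the serine protease adipsin, all secreted by white fat cells. Plin1 coats the lipid droplet and Fabp4 carries fatty acids inside the cell. Ucp1 is the mitochondrial uncoupling protein that defines brown fat, Cidea is a lipid droplet protein and Elovl3 a fatty acid elongase, both abundant in brown fat. Several of these genes are not limited to fat: Fabp4 is also made by endothelium and macrophages, Car3 (carbonic anhydrase III) by muscle and liver, and Elovl3 by liver and skin.

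Of the 10 genes, 6 have a promoter in the RefSeq table of build GRCm38.p6 (Adipoq, Plin1, Cfd, Lep, Retn and Ucp1). The 250 bases before the transcription start are shown for Adipoq and Plin1, which followed each other closely in lung, and for Ucp1, which was seen on few arrays. Capitals mark matches, on either strand, to 4 motifs searched by their letters. These were TATAAA (the TATA box), CCAAT (the CCAAT box), TTGCNNAA (a pattern of the fat cell C/EBP factors) and GCGTG (the core bound by the aryl hydrocarbon receptor, which BkF activates).
Adipoq, chr16:23146286-23146535, plus strand: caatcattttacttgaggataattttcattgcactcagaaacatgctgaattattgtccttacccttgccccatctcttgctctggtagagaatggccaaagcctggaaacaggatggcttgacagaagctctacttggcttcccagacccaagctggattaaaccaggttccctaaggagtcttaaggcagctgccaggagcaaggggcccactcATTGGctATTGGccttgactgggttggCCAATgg
Plin1, chr7:79732777-79733026, minus strand: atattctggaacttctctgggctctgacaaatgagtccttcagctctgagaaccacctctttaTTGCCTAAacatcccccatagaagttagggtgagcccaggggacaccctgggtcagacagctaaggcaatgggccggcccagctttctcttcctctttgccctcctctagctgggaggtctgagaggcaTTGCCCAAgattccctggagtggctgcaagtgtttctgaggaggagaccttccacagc
Ucp1, chr8:83290098-83290347, plus strand: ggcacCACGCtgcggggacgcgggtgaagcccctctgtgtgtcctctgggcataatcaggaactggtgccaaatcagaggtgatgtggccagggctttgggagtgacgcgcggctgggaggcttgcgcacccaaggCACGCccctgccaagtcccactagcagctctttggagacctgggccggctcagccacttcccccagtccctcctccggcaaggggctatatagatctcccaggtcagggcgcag
Adipoq held CCAAT 3 times, Plin1 held TTGCNNAA 2 times and Ucp1 held GCGTG 2 times. Lep, which stayed flat in lung, also held TTGCNNAA 2 times, at the same bases on opposite strands. The windows of Cfd and Retn, which followed Adipoq in lung as Plin1 did, held none of the 4. Among 32851 promoters of the same length, the TATAAA motif was in 12.4%, CCAAT was in 33.8%, TTGCNNAA was in 9.6% and GCGTG was in 28.2%, so GCGTG in a window of this length is common. A match describes the letters and does not show that a factor binds there.

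Every value below is a log2 ratio of the sample, labelled with Cy5, over a universal mouse reference RNA, labelled with Cy3, unless a sentence gives a difference. A value of 0 means the probe was as bright in the sample as in the reference, and values of different genes are not levels that can be set against each other. Markers fitted the labelled tissues, with a mean log2 ratio of the hepatocyte list of 7.21 to 7.79 in liver, of the lung epithelium list of 5.41 to 6.53 in lung, and of the squamous epithelium list of 3.09 to 4.63 in forestomach. Some libraries stood apart. The D2 lung of mouse 12 carried skeletal muscle genes (mean log2 ratio 4.87, against -0.13 or lower in the other lungs) and squamous epithelium genes (3.42 against 0.07 or lower). The D1 lung of mouse 7 carried glandular stomach genes (4.06, against 1.35 or lower in the other lungs), and the D3 liver of mouse 17 carried skeletal muscle genes (4.10 against -0.02 or lower). In forestomach the glandular stomach genes split the arrays, with 5 arrays (mice 1, 4, 11, 16 and 20) at or under 1.87 and 9 at 5.22 or higher.

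The scanner software rates each spot as well above background or not, and a probe was tested in a tissue if its sample signal had that rating on 3 arrays or more (2 in liver), the size of the smallest dose group. It was called at a limma adjusted p of at most 0.05 and a change of at least 1.5-fold. Of the 10 genes, 9 passed that filter in at least 1 tissue: 8 in lung, 7 in liver and 6 in forestomach. Lep passed only in lung and stayed between -0.11 and 0.13 there, and it was well above background on no liver and no forestomach array. Ucp1 passed in no tissue.

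**Figure D1:**
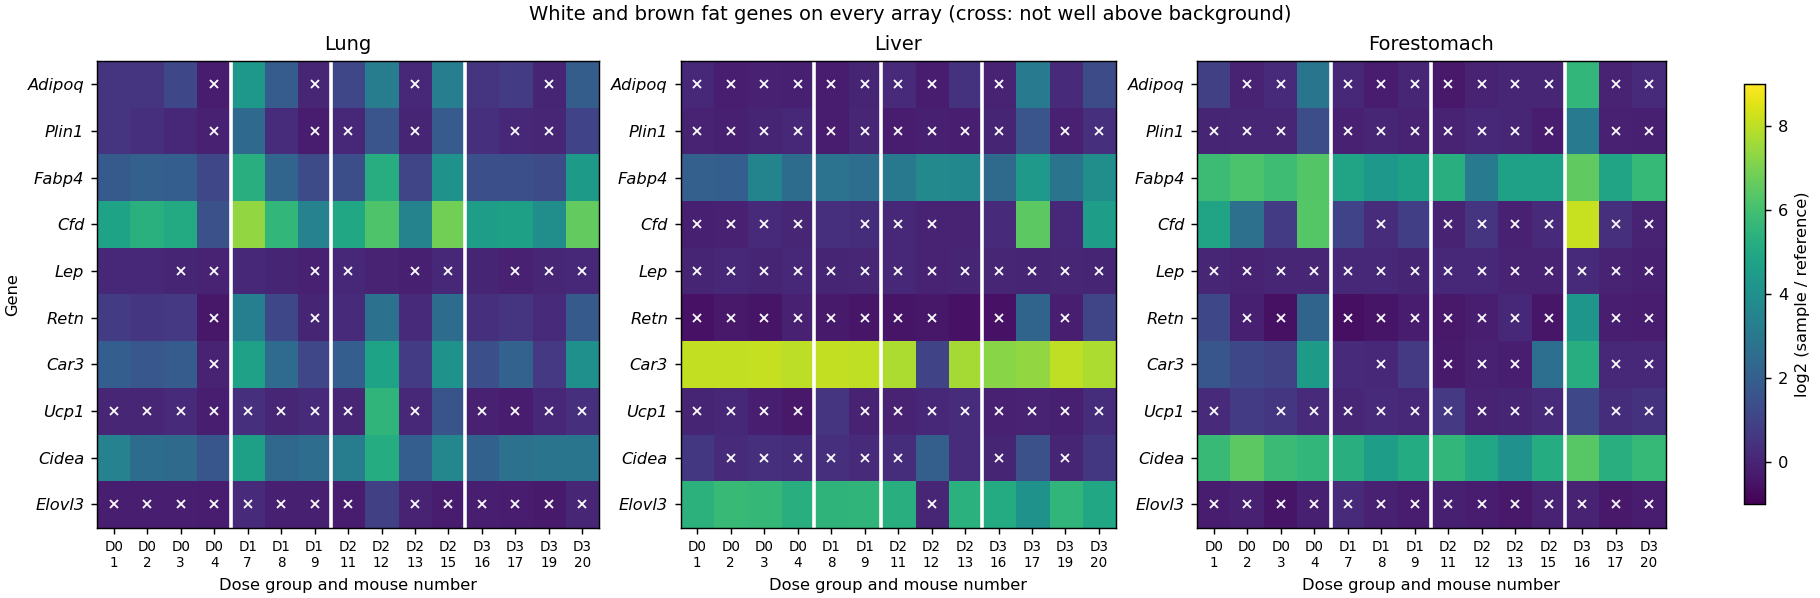
Colour gives the log2 ratio (sample over reference) of each of the 10 genes (rows) on each array (columns, by dose group and mouse) in lung, liver and forestomach, and a cross marks a signal not rated well above background. Arrays with high Adipoq, Plin1, Retn and Cfd together are single mice: 7, 12, 15 and 20 in lung (D1, D2, D2 and D3), 17 in liver (D3) and 16 and 4 in forestomach (D3 and vehicle), Car3 and Elovl3 are bright in all livers except that of D2 mouse 12, and Fabp4 and Cidea are bright in every forestomach.

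Among vehicle controls, 5 of the 10 genes (Car3, Elovl3, Fabp4, Cidea and Cfd) were called between tissues. Of the 9 genes tested across tissues, 4 were called between lung and liver, against 40.2% of all probes, 2 between lung and forestomach, against 29.9%, and 5 between liver and forestomach, against 33% (limma, all 12 tissue and dose groups in 1 fit). A call between tissues was thus common among all probes.

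Car3 had a mean log2 ratio of 8.07 in vehicle liver, 1.40 in vehicle lung and 2.07 in vehicle forestomach, and liver was higher than both (limma adjusted p 5.3e-06 and 3.4e-05). Elovl3 averaged 5.52 in vehicle liver and stayed near background in every vehicle lung and forestomach, where its ratios averaged -0.17 and -0.21. The ratios placed liver 51.8-fold above lung and 53.2-fold above forestomach (limma adjusted p 8.1e-11 and 8.6e-11). In the sample channel alone the bounds were at least 120-fold and at least 107-fold, above the folds of the ratios, so the size depends on the scale. Such bounds set the brighter group against the dimmest signal rated well above background on each array, or against the gene's own dim signal where that was higher, and without a dye swap they are open to dye bias.

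Fabp4 averaged 6.06 in vehicle forestomach, 2.53 in liver and 1.75 in lung, and forestomach was higher than both (limma adjusted p 0.00015 and 1.3e-05), while lung and liver did not pass the test against each other (difference -0.78 ± 0.74, SE). Cidea averaged 5.92 in vehicle forestomach, 2.52 in lung and 0.36 in liver, and all 3 pairs were called (limma adjusted p at most 0.00036). The 4 vehicle forestomachs lay between 5.63 and 6.47 for Cidea, above each vehicle lung (1.69 to 3.43). Cfd averaged 4.19 in vehicle lung and 3.66 in vehicle forestomach and stayed near background in every vehicle liver, which placed lung at least 10.1-fold and forestomach at least 8.89-fold higher than liver in the sample channel (17.9-fold and 12.5-fold in the ratios, limma adjusted p 0.0080 and 0.024). The lung bound was 17.3-fold without vehicle mouse 4, and the forestomach bound was 4.11-fold without mouse 4 and 17.0-fold without mouse 3. Cfd was no longer called between liver and forestomach without the forestomach of mouse 1 or of mouse 4 (limma adjusted p 0.069 and 0.12). Adipoq, Plin1, Retn and Lep passed the test between no pair of vehicle tissues.

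In lung, no fat gene was called at any dose. The call rate over all 32697 probes was 0% at D1, 0.0153% at D2 and 0.0336% at D3, and 0.0367% for the linear dose trend, so these comparisons called few probes of any kind. Cyp1a1, a cytochrome P450 that the aryl hydrocarbon receptor switches on, was among them: its change was 6.28 ± 0.75 (SE) at D2 and 6.81 ± 0.75 at D3, and its lowest D2 lung (8.46) stood above its highest vehicle lung (3.29).

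Adipoq, the most fat-restricted of the genes seen in lung, was 0.49, 0.50, 1.16 and -0.21 in the vehicle lungs of mice 1, 2, 3 and 4. At D1 it was 4.34, 1.91 and 0.09 in mice 7, 8 and 9, at D2 1.15, 3.21, 0.10 and 3.29 in mice 11, 12, 13 and 15, and at D3 0.51, 0.74, 0.04 and 1.96 in mice 16, 17, 19 and 20. Adipoq in 2 of 3 D1 lungs, 2 of 4 D2 lungs and 1 of 4 D3 lungs exceeded every vehicle lung, and each dose group also held a lung at or below 0.51. Mice 4, 9, 13 and 20 shared a slide, which held the lowest Adipoq of D0, D1 and D2 and the highest of D3. The lungs of mice 4, 9 and 13 were also the lowest of all for Cfd (1.49, 3.42 and 3.45). The difference from vehicle was 1.63 ± 0.89 (SE) at D1, 1.45 ± 0.82 at D2 and 0.33 ± 0.82 at D3, with a limma adjusted p of 1.00, 1.00 and 0.96, and the change per 100 mg/kg-bw/day in the trend was 0.01 ± 0.87. Leaving out 1 lung at a time, the D1 difference ran from 0.51 (without mouse 7) to 2.64 and the D2 difference from 1.00 to 2.06. The D3 difference ran from -0.06 (without mouse 20) to 0.58. More fat cells in a piece of tissue and more RNA per fat cell cannot be told apart in such samples.

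Plin1, Retn and Fabp4 were high in the lungs of mice 7, 15, 12 and 20. In the D1 lung of mouse 8, where Adipoq was 1.91, they were lower, at 0.27, 1.19 and 2.28. Lep was high in no lung, with 0.10, 0.11, 0.01 and 0.13 in mice 7, 15, 12 and 20 beside 0.11 in vehicle mice 1 and 2. Plin1 was 2.40 in mouse 7, 1.88 in mouse 15, 1.65 in mouse 12 and 1.03 in mouse 20, and at most 0.54 in the other 11. Retn was 3.31, 2.53, 2.76 and 1.83 in those 4 lungs and at most 1.19 in the others. Fabp4, at 5.28, 4.14, 5.21 and 4.45, had the clearest gap, since no other lung was above 2.28. The lung of mouse 12 also had a macrophage score of 4.66, against 2.60 or lower in the other lungs, while mice 7, 15 and 20 were at 2.13, 2.24 and 1.52, and the part of macrophages in its Fabp4 value was not tested.

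Cfd was bright in nearly all lungs, from 1.49 in vehicle mouse 4 to 7.39 in mouse 7, with mice 15 (6.86), 20 (6.58) and 12 (6.26) next. Car3 was 4.80 in mouse 12, 4.70 in mouse 7, 4.09 in mouse 15 and 4.03 in mouse 20, and at most 2.49 in the others. The 4 lungs came from D1, D2 and D3, and none was a vehicle lung.

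Across the 15 lungs, Adipoq correlated with Retn (Pearson's r 0.97, Spearman's rho 0.86), Car3 (0.94 and 0.93), Plin1 (0.93 and 0.81), Fabp4 (0.93 and 0.89), Cfd (0.87 and 0.93) and Cidea (0.80 and 0.60). With a fat score, the mean log2 ratio of 7 other fat cell genes (Cidec, Plin4, Adig, Trarg1, Lipe, Acvr1c and Adrb3), r was 0.92 and rho 0.85. Over these 7 relations the permutation p of r (100000 shuffles) was between 1e-05, the smallest they can give, and 0.00078, and at most 0.00078 after Benjamini-Hochberg adjustment. For rho it was between 1e-05 and 0.019, and at most 0.019 after adjustment. Without mice 7 and 15, the lungs farthest from the median of Adipoq, r was 0.72 for Cidea and 0.81 to 0.94 for the other 6. With each slide's mean taken out, r was 0.77 for Cidea and 0.85 to 0.97 for the others.

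**Figure D2:**
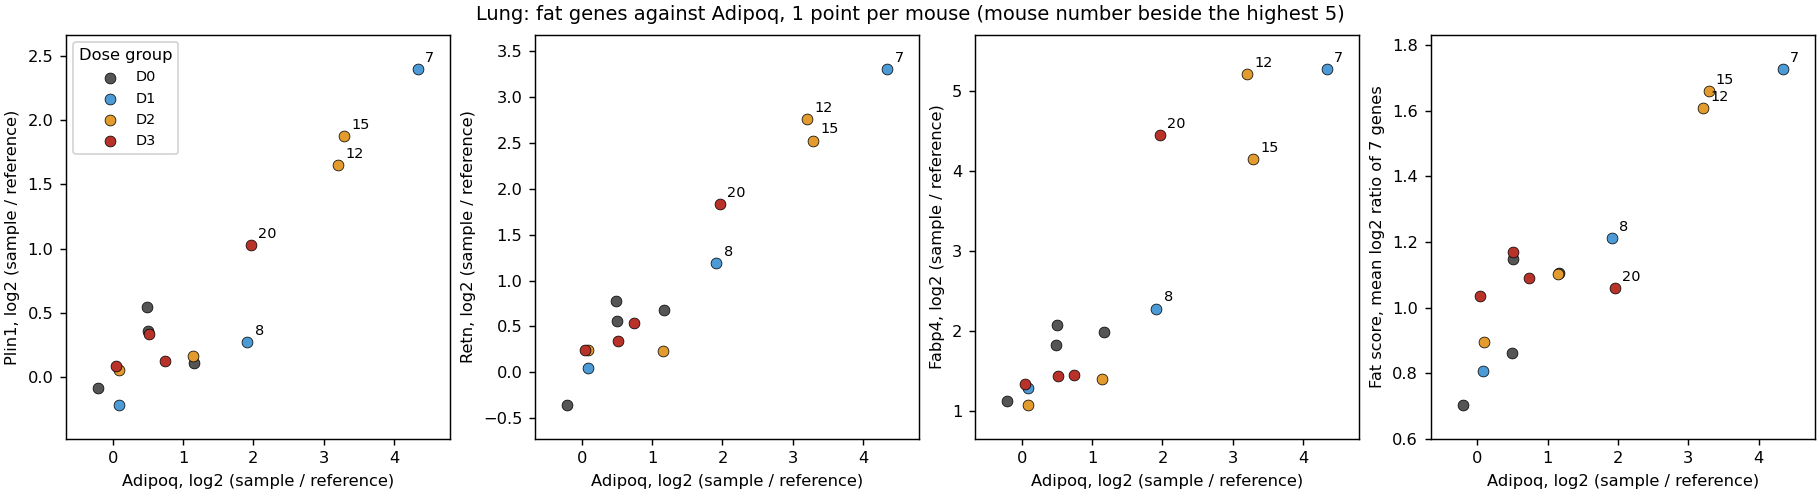
Each point is 1 lung, coloured by dose group, with the log2 ratio of Adipoq on the x axis and that of Plin1, Retn, Fabp4 or the fat score of 7 other genes on the y axis. Mice 7, 12 and 15 are at the top of all 4 panels, mouse 20 joins them for Plin1, Retn and Fabp4 but has a fat score of 1.06, below that of vehicle mouse 3, and vehicle lungs stay at the lower left.

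When the fat score was added to the lung model as a covariate, the Adipoq difference went from 1.63 to 0.44 ± 0.41 (SE) at D1, from 1.45 to -0.02 ± 0.40 at D2 and from 0.33 to -0.22 ± 0.36 at D3. At D2, Car3 went from 1.51 to 0.02 and Cidea from 0.98 to 0.14. Without a covariate, Car3 was 0.89 and Cidea 0.42 when mouse 12 was left out, and Car3 was 2.22 and Cidea 1.49 without mouse 13. At D3 the differences of the 8 genes tested lay between -0.03 and 0.76 without the score and between -0.22 and 0.16 with it. The score is measured in the same lungs, so this is a description of shared spread and not a separation of tissue from dose.

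Ucp1 and Elovl3 were brightest in 1 lung. Ucp1 was 5.56 in D2 mouse 12 and 1.59 in D2 mouse 15, and it was not well above background in any of the other 13 lungs, where it lay between -0.23 and 0.41. Elovl3 was 0.90 in mouse 12 and not well above background elsewhere. Cidea, present in all lungs, was highest in mouse 12 (5.20) and mouse 7 (4.68), and mouse 7 showed no Ucp1 (0.36, not well above background).

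With Ucp1 above background in 2 of the 4 D2 lungs and in no vehicle lung, the D2 mean was at least 2.89-fold above vehicle in the sample channel, and it was brightest in mouse 12. Without that lung the bound was 1.20-fold. Of 10 further brown fat genes, the mitochondrial Cox8b (6.85) and Cox7a1 (2.84) were highest in mouse 12, and both are also expressed in muscle, whose genes that lung carried. Kng2 was also highest there, at -0.04, and was rated well above background in that lung only, and the other 7 were highest in other lungs. The mean log2 ratio of these 10 genes was 1.53 in mouse 12, close to mice 15 (1.48), 7 (1.42) and 20 (1.37), and at most 1.09 in the other 11 lungs. The transcription factor Lhx8 was well above background in no lung. The part of muscle, stomach and squamous epithelium RNA in these values was not tested.

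Mice 7, 15 and 20 also had the 3 highest heart muscle scores among the lungs (3.76, 3.64 and 3.68), followed by vehicle mouse 2 at 2.92, while mouse 12 was at 0.83. All 6 heart muscle genes were higher than vehicle at each dose, and none was called. Their median change was 2.05 at D1, 0.83 at D2 and 1.52 at D3, beside 1.15, 1.11 and 0.33 for the 8 fat genes. The part of heart tissue was not tested. Of the 10 other fat cell genes fixed as a list (Aoc3, Slc2a4, Pparg, Thrsp, Gpd1, Pnpla2, Lpl, Cd36, Dgat2 and Pck1), all were tested in lung and none was called at any dose. Their median change was 0.23 at D1, 0.42 at D2 and 0.24 at D3, where the median of all probes was within 0.01 of 0. The 5 named non-member genes whose lung pattern was most like that of Adipoq, of 14941 compared, were Pck1 (r 0.96), Mrap (0.96), Sult1d1 (0.95), Adig (0.95) and Thrsp (0.94).

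In liver, the call rate over 30460 probes was 0% at D1, 0.0427% at D2, 0.0525% at D3 and 0% for the trend, and no fat gene was called. Cyp1a1 was not called here either. Its change was 5.69 ± 1.12 (SE) at D2 and 5.26 ± 1.03 at D3 (limma adjusted p 0.11 and 0.13). Of the 7 fat genes tested, 0 had an unadjusted p under 0.05 at D1, 1 at D2, 3 at D3 and 4 for the trend, beside 468, 3262, 2376 and 2623 of all probes. In lung, 0 of 8 were under that limit at any dose or for the trend, beside 577, 1390, 2622 and 2773 of all 32697 probes. White fat genes were seen in few livers. Adipoq was -0.16 to 0.15 in the 4 vehicle livers, -0.19 and 0.05 at D1, and 0.19, -0.21 and 0.45 at D2. At D3 it was 3.13 in mouse 17, 1.29 in mouse 20, 0.25 in mouse 19 and 0.00 in mouse 16, so 2 D3 livers stood clear of all other livers.

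The same 2 livers carried Cfd at 6.46 and 4.57, whereas the other 11 livers lay between -0.12 and 0.39. Retn was 2.22 and 1.09 there and below 0 in every other liver. Plin1 was well above background in mouse 17 only (1.63), and Fabp4, seen in all livers, was highest in these 2 (4.39 and 3.94), followed by 3.71 and 3.66 in D2 mice 12 and 13 and 3.52 in vehicle mouse 3. Macrophage scores were also highest in mice 13 (1.64), 17 (1.45), 12 (1.27) and 20 (1.02), and at most 0.94 in the other livers.

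The D3 differences in liver were 2.82 ± 1.08 (SE) for Cfd, 1.22 ± 0.50 for Adipoq, 0.99 ± 0.43 for Retn and 0.87 ± 0.41 for Fabp4, with limma adjusted p from 0.56 to 0.65. Because none of the 4 vehicle livers showed Cfd above background, D3 was at least 7.15-fold higher in the sample channel (7.08-fold in the ratios), with mice 17 and 20 the bright ones. That bound was 3.03-fold without mouse 17, 12.6-fold without mouse 16 and 12.9-fold without mouse 19. Adipoq and Retn were above background in no vehicle liver either, and their D3 bounds were at least 2.13-fold and 1.91-fold higher. With the fat score as a covariate the differences were 1.11, 0.38, 0.30 and 0.35. Without mouse 17 the differences without the score were 1.62 for Cfd, 0.57 for Adipoq, 0.47 for Retn and 0.54 for Fabp4. The fat score was 1.33 in mouse 17 and 0.73 in mouse 20, the 2 highest livers, and at most 0.50 in the others, and mouse 17 was also the liver that carried skeletal muscle genes. Glandular stomach scores were highest in the same livers (0.68 in mouse 17 and 0.48 in mouse 20, against 0.17 or lower in the other 11), and the part of these tissues was not tested.

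The liver trend per 100 mg/kg-bw/day was 2.82 ± 1.05 (SE) for Cfd, 1.26 ± 0.47 for Adipoq, 1.01 ± 0.42 for Retn and 0.90 ± 0.40 for Fabp4 (limma p 0.017, 0.017, 0.030 and 0.039, adjusted p 0.49 to 0.56). Without mouse 17 these were 1.52, 0.58, 0.45 and 0.62, and without mouse 20 they were 2.14, 1.18, 0.82 and 0.77, with only the trend of Adipoq under an unadjusted p of 0.05 in either case. Leaving out arrays for the trend was chosen after the values were seen.

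**Figure D3:**
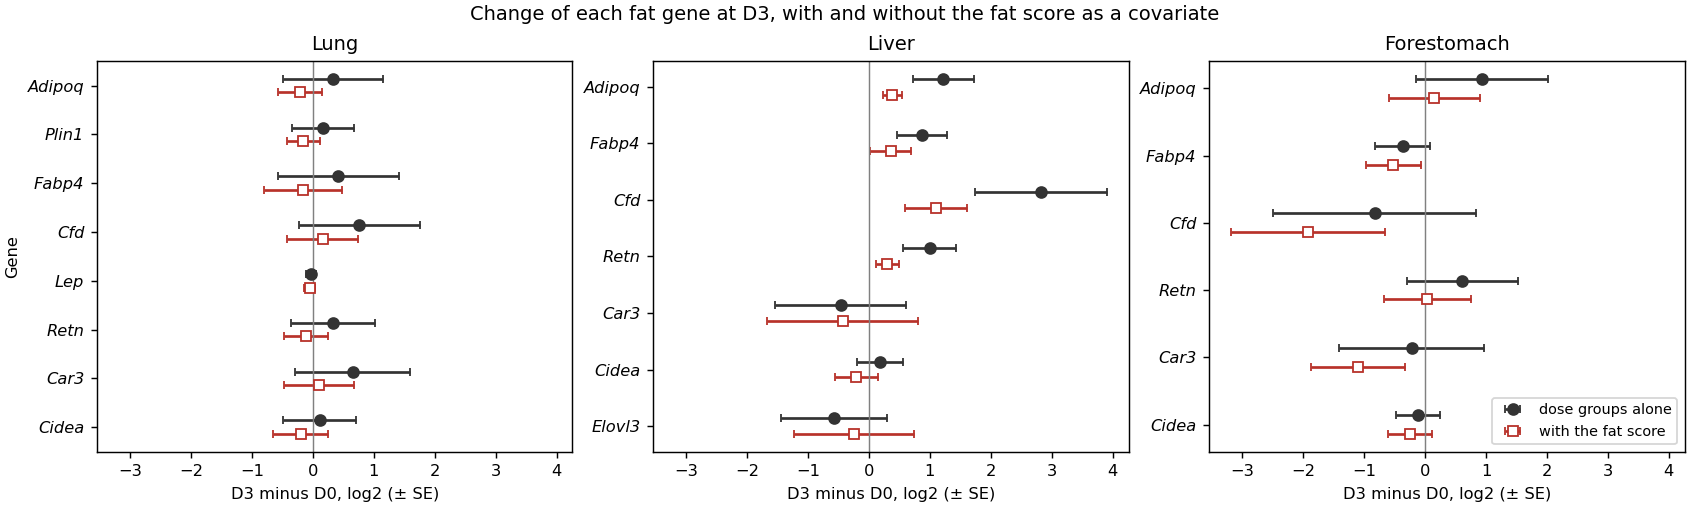
Points give the difference between D3 and D0 (log2, bars are the SE) for each fat gene tested in lung, liver and forestomach, from the dose groups alone (filled) and with the fat score as a covariate (open). In liver the Cfd difference falls from 2.82 to 1.11 with the score, in lung all differences then lie near 0, and none of the filled points was called.

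No liver showed Ucp1 above background except D1 mouse 8, at 0.51. The genes whose liver pattern was most like that of Adipoq, among 14120 compared over 13 arrays, were Spink4 (r 0.99), Mmrn1 (0.98), Lrrc26 (0.97), Synpo2 (0.97) and Adig (0.96). Adipoq was well above background on only 4 of these arrays, so these r rest on few livers.

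Car3 and Elovl3, which hepatocytes themselves express, showed another pattern. Car3 was 8.08, 8.10, 8.11 and 8.00 in vehicle livers, 8.07 and 8.04 at D1, and 7.23, 7.40, 8.02 and 7.78 at D3. At D2 it was 7.78 in mouse 11, 7.64 in mouse 13 and 1.05 in mouse 12, which is 125-fold below the median of the other 12 livers. Only 2 of 30451 probes were further below that median in mouse 12.

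Elovl3 was 0.09 and not well above background in the same liver, against 4.09 to 5.73 in the other 12. Cidea went the other way, with 2.01 in mouse 12 against 1.47 or lower elsewhere. The D2 differences were -2.58 ± 1.16 (SE) for Car3, -1.93 ± 0.94 for Elovl3 and 0.50 ± 0.40 for Cidea (limma adjusted p 0.46, 0.49 and 0.69), and without mouse 12 they were -0.36, -0.18 and -0.08. All 3 D2 livers were below every vehicle liver for Car3, and 3 of 4 D3 livers were too.

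The hepatocyte score of that liver was 7.56, within the range of the other livers. Genes known for higher expression in male mouse liver were low in it: Hsd3b5 was 0.21 against a median of 6.54 in the other livers, Cyp4a12a 1.36 against 8.84, and Slco1a1 0.29 against 6.67. Genes known for higher expression in female liver were high, with Sult2a1 at 5.42 against 0.06 and Cyp2b13 at 3.66 against 0.24. Of 9 male-biased genes listed, 8 were below all other livers, and all 7 female-biased genes listed were above them, both lists having been drawn up after the values were seen. Y-linked Eif2s3y (2.06 against 2.33) and Ddx3y (1.85 against 1.74) were within the range of the other livers, Kdm5d and Uty were above it (0.36 and 0.53, against at most 0.23 and 0.36), and the X-inactivation transcript Xist (-0.83, against -1.61 to -0.66) was within it. The part of this pattern in the Car3 and Elovl3 values was not tested.

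**Figure D4:**
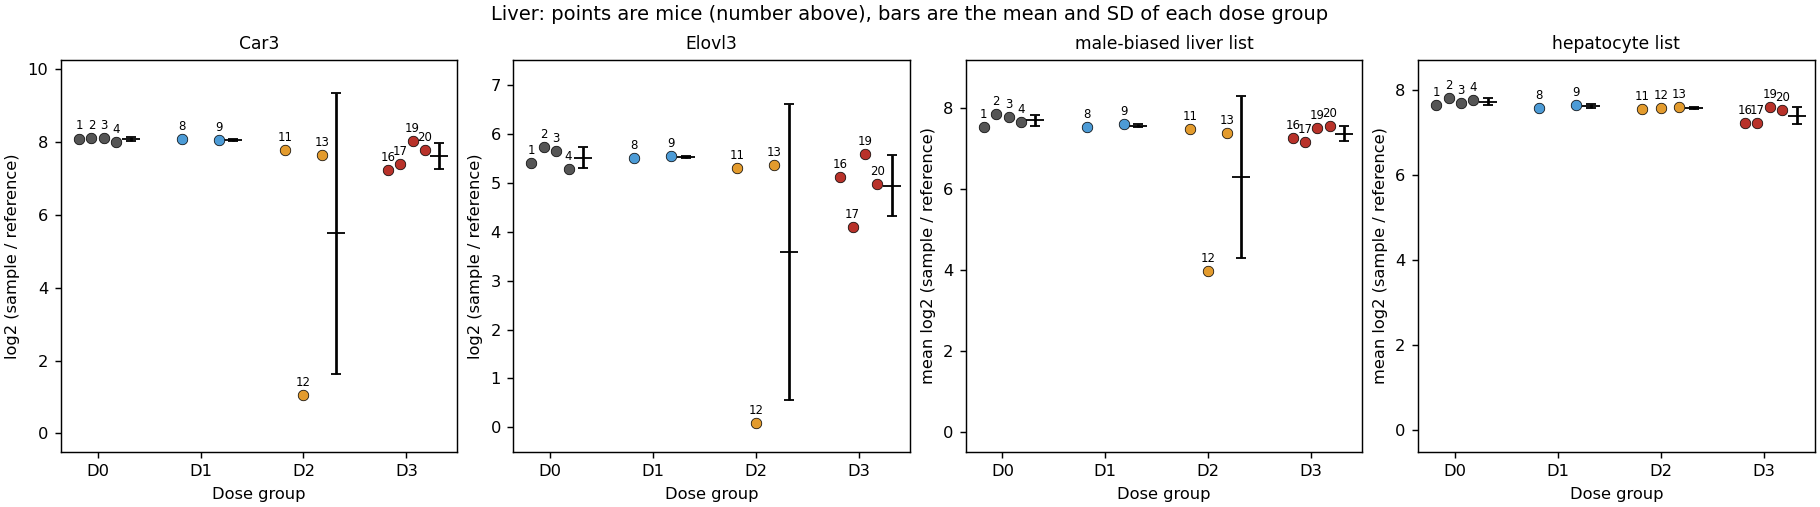
Points are livers (mouse number above) by dose group, bars are the mean and SD, and the y axes give the log2 ratio of Car3 and Elovl3 and the mean log2 ratio of the male-biased and hepatocyte lists. Mouse 12 is far below all other livers for Car3 (1.05), Elovl3 (0.09) and the male-biased list (3.98), and level with them for the hepatocyte list (7.56).

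One of the 10 other fat cell genes was called in liver. Cd36, a receptor that takes up fatty acids in fat cells, muscle and macrophages, rose by 2.47 ± 0.34 (SE) at D2 (limma adjusted p 0.037), and its lowest D2 liver (1.25) was above its highest vehicle liver (-0.17). Cd36 was no longer called without 8 of the 13 livers, taken out 1 at a time (each vehicle mouse, D1 mice 8 and 9, D2 mouse 13 and D3 mouse 20), where its change was 2.38 to 2.58 and its adjusted p 0.059 to 0.13, nor with slide as a block (limma adjusted p 0.065). The D2 livers, mouse 12 among them, also had macrophage scores of 0.94 to 1.64, above the 0.63 to 0.88 of vehicle livers, and the part of these cells was not tested. The median change of that list at D2 was 0.26, beside -0.01 for all probes.

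In forestomach, none of 25305 probes was called at D1, D2 or D3 or for the trend (0% in each), although 3070, 1920, 557 and 712 had an unadjusted p under 0.05. Cyp1a1, with changes of 2.24 ± 0.79 (SE) at D2 and 3.24 ± 0.85 at D3, was thus not called either. Of the 6 fat genes tested, 2 were under that unadjusted limit at D1, 3 at D2 and 0 at D3. Fabp4 was 5.84, 6.17, 5.88 and 6.34 in the vehicle forestomachs of mice 1, 2, 3 and 4. It was 4.83, 4.35 and 4.67 at D1 (mice 7, 8 and 9), 5.28, 3.14, 4.73 and 4.70 at D2 (mice 11, 12, 13 and 15) and 6.56, 4.82 and 5.69 at D3 (mice 16, 17 and 20). All D1 and D2 forestomachs lay below all vehicle forestomachs, and D3 lay on both sides of them. The glandular stomach score was uneven over the dose groups as well. It was 5.94 to 6.45 at D1, and its median was 3.55 in vehicle mice, 5.73 at D2 and 1.59 at D3.

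The Fabp4 difference was -1.44 ± 0.45 (SE) at D1, -1.59 ± 0.42 at D2 and -0.37 ± 0.45 at D3, with limma adjusted p of 0.28, 0.48 and 1.00. At D1 the gene was called when only D0 and D1 arrays entered the fit (adjusted p 0.025), a setting that called 333 probes in place of 0. Within slides that held both groups, the difference was between -1.67 and -1.02 at D1 (2 slides) and between -1.60 and -0.56 at D2 (3 slides).

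Cidea was 5.63 to 6.47 in vehicle forestomachs, 5.30, 4.56 and 5.14 at D1, 5.64, 4.97, 4.04 and 5.18 at D2, and 6.42, 5.29 and 5.69 at D3. Its difference was -0.91 ± 0.36 (SE) at D1, -0.96 ± 0.34 at D2 and -0.12 ± 0.36 at D3 (limma adjusted p 0.36, 0.56 and 1.00). All D1 values and 3 of 4 D2 values lay below the vehicle range.

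The squamous epithelium score, a mean over 7 keratinocyte genes, was 4.33 to 4.63 in vehicle forestomachs, 3.45 to 3.98 at D1, 3.09 to 4.47 at D2 and 3.91 to 4.54 at D3. None of the 6 genes of that list that were tested was called at any dose. With this score as a covariate, chosen after the values were seen, the Fabp4 difference was -0.25 ± 0.33 (SE) at D1 and -0.57 ± 0.30 at D2, and that of Cidea was -0.39 and -0.51. With the glandular stomach score, also chosen afterwards, Fabp4 was -1.05 and -1.38, and with the fat score it was -1.38 and -1.55.

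**Figure D5:**
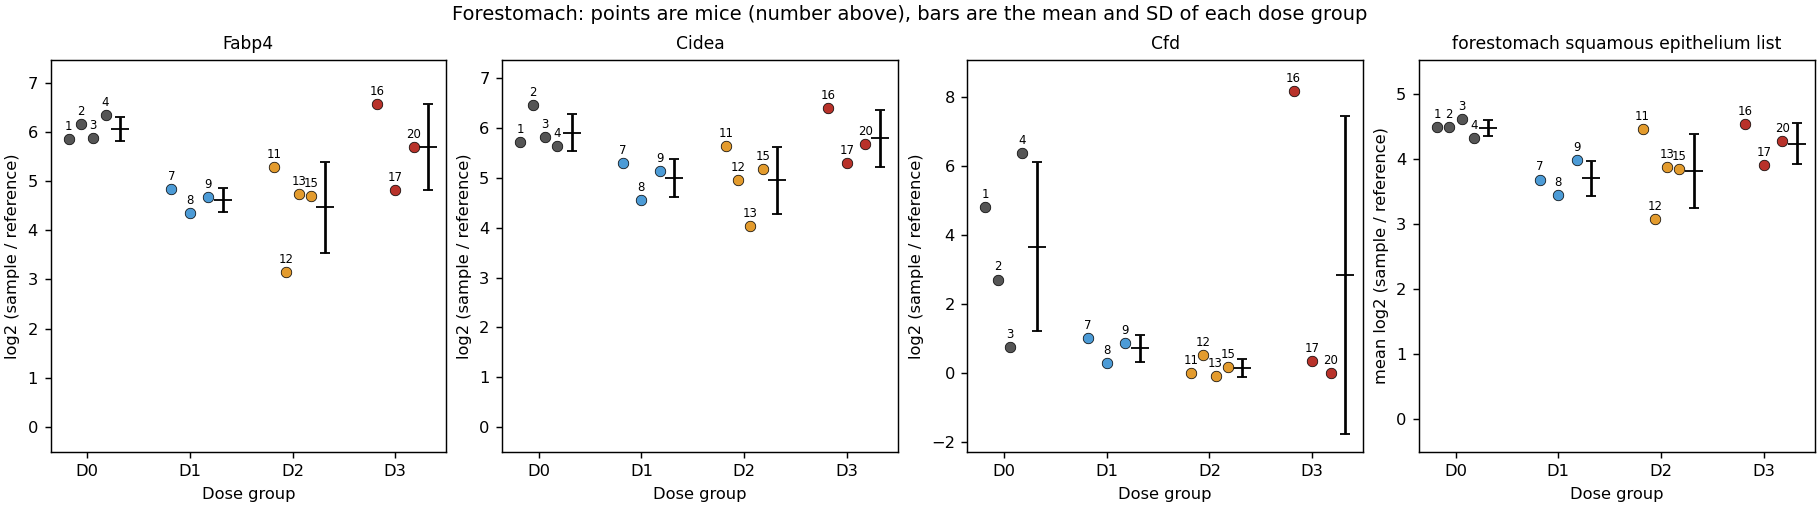
Points are forestomachs (mouse number above) by dose group, bars are the mean and SD, and the y axes give the log2 ratio of Fabp4, Cidea and Cfd and the mean log2 ratio of the squamous epithelium list. Fabp4, Cidea and the squamous list are lower at D1 and at most of D2 than in vehicle mice, and at D3 they lie below the vehicle range in 2, 1 and 2 of the 3 mice, none of the genes being called, while Cfd follows single mice (16, 4 and 1).

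The white fat genes of forestomach were again high on single arrays. Adipoq was 5.60 in D3 mouse 16, 2.87 in vehicle mouse 4 and 0.89 in vehicle mouse 1, and not well above background in the other 11. Cfd was 8.16, 6.36 and 4.82 in these 3 mice, 2.71 in vehicle mouse 2 and at most 1.02 elsewhere. Retn was 4.24, 2.23 and 1.18 in the 3 and not well above background in any other, and Plin1 was seen in mice 16 (3.09) and 4 (1.36) only. Here 2 of the 3 arrays with Adipoq were vehicle arrays. The forestomach of mouse 16 also had the highest mesothelium score (1.23, the next being 0.37 in vehicle mouse 3) and the highest endothelium score (1.65, the next being 1.47 in D2 mouse 15), whereas mice 4 and 1 were at 0.14 and -0.16 for mesothelium and at 0.84 and 0.81 for endothelium. The part of these cells was not tested.

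With mice 4 and 1 in the vehicle group, Cfd differed by -2.94 ± 1.66 (SE) at D1 and -3.51 ± 1.54 at D2, and Adipoq by -1.01 ± 1.08 and -1.03 ± 1.00 (limma adjusted p 0.48 to 0.86). Adipoq at D1 and D2 and Cfd at D2 were well above background on no array. In the sample channel Adipoq was at least 1.47-fold lower at D1 and 1.48-fold at D2, and Cfd at least 8.60-fold lower at D2. At D3, Adipoq differed by 0.93 ± 1.08, and without mouse 16 by -0.91. Mice 1, 4 and 16 were all among the 5 forestomachs with few glandular stomach genes, and mice 11 and 20, the other two, had no Adipoq above background. Ucp1 was well above background in mice 2 (0.78) and 16 (1.18) only. Over 14 arrays, the genes most like Adipoq among 13363 were Pck1 (r 0.94), Adig (0.93), Thrsp (0.92), Hp (0.86) and Chodl (0.84). With Adipoq well above background on only 3 of these arrays, these r rest on few forestomachs.

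The arrays with the most Adipoq were those of mice 7, 15, 12 and 20 in lung, 17 and 20 in liver, and 16, 4 and 1 in forestomach. In lung, mouse 8 (1.91) was close behind mouse 20 (1.96). Only mouse 20 appears 2 times: it was high in lung and liver and had no Adipoq above background in forestomach (0.22). Mouse 7 was highest in lung and at 0.12, not well above background, in forestomach, and mouse 16, highest in forestomach, was at 0.51 in lung and 0.00 in liver. No mouse was high in all the tissues measured, but mice 7 and 15, both high in lung, had no liver array.

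The D3 effect of no fat gene was called as different between tissues. The call rate over 37646 probes was 0.0266% for lung against liver, 0.0106% for lung against forestomach and 0.00531% for liver against forestomach. The interval around each difference was wide, as for Cfd, whose D3 effect was 3.65 ± 1.96 (SE) higher in liver than in forestomach and 2.06 ± 1.88 lower in lung than in liver (limma adjusted p 1.00 in both).

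The spread of these genes was large beside that of other probes. In lung, the SD over the 15 arrays was 1.53 for Fabp4, 1.52 for Cfd and 1.38 for Adipoq, where the median SD of all tested probes was 0.20. In liver Cfd had an SD of 2.07 and Car3 of 1.91, beside a median of 0.19, and in forestomach Cfd had an SD of 2.66, beside 0.28. Lep in lung, at 0.08, was the exception.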

How the data were processed

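Per the labels and the published methods, RNA of each tissue piece (Cy5) was hybridised with a universal mouse reference RNA (Cy3) to a 2-colour Agilent array, with no dye swap. The authors deposited the scanner output of each array, which gives the median intensity of both channels and a log10 ratio from the Feature Extraction software (version 10.7.3.1 for lung and forestomach, 11.0.1.1 for liver, per the file headers). The authors also deposited a table of processed log2 ratios, LOWESS-normalised without background subtraction. Its lung and forestomach columns followed the scanner files and its liver columns did not match their probes, so liver was not taken from it.

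Median intensities were loess-normalised within each array without background subtraction, control and outlier spots were left out, and spots of 1 probe were averaged (55681 probes). Probes were named through RefSeq accessions (annotation GRCm38.p6; 26413 of 33064 probes with an accession received a symbol). The tests used limma 3.58.1 under R 4.3.3, with the 4 dose groups of a tissue fitted together, and version 1.17.8 of data.table for reading. Adjusted p-values are Benjamini-Hochberg over all tested probes. The dose trend had no fold limit. The shrunken F test of the published methods was not used. Signal was required well above background on at least 3 arrays in lung, 2 in liver and 3 in forestomach. Each mouse is a separate animal, and 2 to 4 arrays per group limit the precision. The scanner model in the headers differs from that in the methods. The fits were tested on simulated data.

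The members, marker lists, tests and alternatives were chosen with earlier results of these data known. All 10 members are named, as are the 5 other genes most like Adipoq in each tissue. Likeness to Ucp1 was not computed, as it was tested in no tissue. Mouse numbers were also used as a block across tissues, and the consensus correlation between tissues of 1 mouse was 0.06. The alternatives were other normalisations, background correction, filters, slide blocks, covariates, fewer groups and leaving out each array. The other lists gave the following. The macrophage score was 4.66 in the lung of mouse 12 and at most 2.60 in other lungs, the endothelium score was lowest in that lung (3.67), and the mesothelium score ran from -0.94 to 1.02 in lung. The 10 further brown fat genes had a mean log2 ratio of 0.69 to 1.53 in lung, 1.85 to 2.95 in liver and 0.04 to 1.08 in forestomach. The liver mean rests on Slc27a2 and Kng2 (medians 10.2 and 9.17), the medians of the other 8 being -0.87 to 1.66.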

Additional observations from a re-analysis of the deposited data

Results flagged for a closer look

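Of 50 sets of 4 arrays (1 fat gene, tissue and dose group each), 5 had an array whose gap to its nearest neighbour took up more of the group's range than Dixon's critical value allows, which chance passes in about 1 of 20 groups. Vehicle mouse 4 was low in lung for Car3 (0.0084 against 1.72 for the next lung) and Cfd (1.49 against 4.79). In D3 lung, mouse 20 was high for Fabp4 (4.45 against 1.45), and mouse 16 was low for Cidea (2.09 against 2.75). In D2 forestomach, mouse 15 was high for Car3 (2.64 against -0.09), with Adipoq (0.09) and Cfd (0.18) not well above background there. Groups of 2 or 3 arrays, which include the D2 livers with mouse 12 and the D3 forestomachs with mouse 16, were not examined in this way.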

How the results depend on the processing

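The number of fat genes called stayed within 1.5 times its main value in all 18 comparisons under every alternative run, with 1 exception: at D1 in forestomach it was 1 in place of 0 (Fabp4, -1.44, adjusted p 0.025) with only the groups compared in the fit. With mouse as a replicate block across tissues, 4, 2 and 5 fat genes were called between vehicle lung and liver, lung and forestomach, and liver and forestomach, as without the block, and 0 for the D3 effects. Leaving out vehicle mouse 1 or 4 gave 4 fat genes in place of 5 between vehicle liver and forestomach, Cfd being the one lost. Leaving out arrays for Cd36 and for the fold bounds was chosen after seeing the data.

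None of the single changes below was called, and their causes were not tested. With the fat score as a covariate, lung differences changed sign for Adipoq at D2 (-0.016) and, at D3, for Adipoq (-0.22), Plin1 (-0.16), Fabp4 (-0.16), Retn (-0.11) and Cidea (-0.20), as did Cidea in D3 liver (-0.21). Signs also changed for Lep in D3 lung (0.020) and Retn in D3 forestomach (-0.51) with scanner software ratios. In D3 forestomach they changed without loess for Cfd (0.21), Car3 (0.41) and Cidea (0.12), with slide as a block for Fabp4 (0.068), Car3 (0.18) and Cidea (0.18), and with the squamous score for Fabp4 (0.0038) and Cidea (0.048).

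Leaving out 1 array at a time, D3 lung differences ranged from -0.056 to 0.58 for Adipoq, -0.050 to 0.27 for Plin1, -0.35 to 0.69 for Fabp4, -0.14 to 1.15 for Cfd, -0.063 to 0.0074 for Lep, -0.037 to 0.49 for Retn, -0.0012 to 1.13 for Car3 and -0.17 to 0.41 for Cidea. For Cidea in liver the range was -0.078 to 0.80 at D2 and -0.13 to 0.35 at D3. In D3 forestomach it was -0.91 to 1.92 for Adipoq, -0.80 to 0.066 for Fabp4, -3.48 to 0.59 for Cfd, -0.86 to 1.36 for Retn, -1.91 to 0.63 for Car3 and -0.42 to 0.14 for Cidea. The sign changed without mouse 20 (lung Adipoq, Plin1, Fabp4, Retn and Car3, forestomach Cfd and Car3), vehicle mouse 4 (lung Cfd and Cidea, forestomach Cfd and Car3), mouse 17 (lung Lep, liver Cidea, forestomach Fabp4, Cfd, Car3 and Cidea), mouse 16 (forestomach Adipoq and Retn), vehicle mouse 2 (forestomach Cidea) and, at D2 in liver, mouse 12 (Cidea).

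Over all probes, calls in lung ran from 0 to 11 at D2 (5 in the main analysis), 3 to 26 at D3 (11) and 0 to 22 for the trend (12), in liver from 1 to 31 at D2 (13), 2 to 67 at D3 (16) and 0 to 30 for the trend (0), and in D1 forestomach from 0 to 333 (0). For D3 effects they ran from 2 to 20 (10, lung against liver), 0 to 5 (4, lung against forestomach) and 0 to 4 (2, liver against forestomach). Without 1 array the liver D2 count ran from 0 to 159. Another probe per gene could not be tried, since each fat gene has 1 probe, the authors' processed ratios were used for lung and forestomach only, and normexp started from the median foreground. For Lep, Ucp1 and Elovl3 outside liver, signal near background limits what could be seen.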
